A study of Drosophila melanogaster with 8 samples.

Results

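Where 2 or more separate peaks of Dam-RNase H1 binding in control wing discs lay under a single peak in ecd1 discs, the ecd1 peak was called a joining peak and the control peaks under it its pieces. Joining peaks were picked by position alone, as ecd1 peaks that shared at least 1 bp with each of 2 or more control peaks. They numbered 403 of 9559 ecd1 peaks (4.22%, 95% Wilson interval 3.83 to 4.64, counting error only). Of the other ecd1 peaks, 6938 overlapped exactly 1 control peak and 2218 overlapped none. The choice rests on the same contrast of ecd1 with control as the widths, heights and difference regions given here, so these values describe the peaks and were not tested.

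Targeted DamID had been run on third-instar wing discs, the larval precursors of the wing, of Drosophila melanogaster. All larvae carried nub-Gal4, which drives expression in the wing pouch, the Gal4-dependent Dam construct UAS-LT3-Dam or UAS-LT3-Dam-RNase H1, and the heat-sensitive repressor tub-Gal80. They developed at 25 °C and spent 24 h at 29 °C from day 6 after egg laying, and discs were dissected on day 7. The heat step released the Dam constructs from repression in every group. In larvae with the temperature-sensitive allele ecd1 it also inactivated the mutant protein, so the loss of ecd function and Dam expression began together. The groups were control Dam-only (nub>Dam, 1 library), control Dam-RNase H1 (nub>Dam-RNase H1, 3 libraries), ecd1 Dam-only (nub>Dam; ecd1, 1 library) and ecd1 Dam-RNase H1 (nub>Dam-RNase H1; ecd1, 3 libraries). For the ecd1 Dam-only library the description reads Dam-RNase H1, against its title and genotype. The files give 1 peak list for each genotype and no value per library, so no value below has a replicate error, and the depth is unknown. Binding data hold no marker expression, and the tissue label was not checked against one.

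RNase H1 is the enzyme that cuts the RNA strand of RNA:DNA hybrids, which form within R-loops where a transcript pairs again with its template. Fused to Dam, a bacterial adenine methylase, it leaves methyl marks on nearby GATC sites, and the fragments between methylated sites are amplified and sequenced. Signal is therefore read per GATC fragment. The gene ecd (ecdysoneless) is known for its part in the synthesis of the moulting hormone ecdysone and, with Prp8, in splicing. The height of a peak is the authors' own score, whose scale and log base no source used here gives. Heights of the ecd1 and control lists come from lists made separately, and a joining peak and its pieces are intervals of unequal width.

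Most joining peaks joined a pair of control peaks. Exactly 2 pieces lay under 377 of them, 3 pieces under 24 and 4 pieces under 2. The pieces were 826 distinct control peaks, 9.61% of the 8597 in the control list (95% Wilson interval 9.0 to 10.2). The opposite arrangement was more frequent: 543 control peaks (6.32%, 5.82 to 6.85) each overlapped 2 or more ecd1 peaks. The ecd1 list had more peaks (9559 against 8597) and narrower ones (median 1378 against 1575 bp). Neither count was adjusted for this. In 146 joining peaks at least 1 piece also met another ecd1 peak and so ran past an end of the joining peak. In the other 257 the pieces met no other ecd1 peak.

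Many of these overlaps were thin. In 91 joining peaks at least 1 piece shared only a single end base with the ecd1 peak, in 26 the smallest overlap was 2 to 99 bp and in 286 it was 100 bp or more. Just outside the limit of 1 bp, 26 ecd1 peaks over exactly 1 control peak had another control peak within 10 bp and 202 had one within 100 bp, the nearest at 4 bp. All pieces lay wholly inside the ecd1 peak in 138 joining peaks, some but not all in 191 and none in 74. Both outer ends of the ecd1 peak were the outer ends of the pieces in 61, and at least 1 end was in 242. The control pieces ran past both ends in 79 joining peaks and past 1 end in 186.

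Joining peaks were wide. Their median width was 3419 bp (quartiles 2072 and 5254, range 229 to 16247), against 1378 bp for all ecd1 peaks and 1571 bp for ecd1 peaks over exactly 1 control peak. A wide peak has more room to meet several others, so this width is in part what the rule selects. The pieces had a median width of 1646 bp, close to the 1575 bp of all control peaks. Added up per joining peak, the pieces had a median of 3694 bp, and the ratio of the ecd1 width to that sum had a median of 0.985 (quartiles 0.637 and 1.25). The joining peak was wider than the sum of its pieces in 197 of 403 cases. Joining peaks were thus about as often narrower as wider than the control peaks they touched.

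Control peaks already covered most of the bases. The median share of a joining peak that lay on control peaks was 80.1% (quartiles 63.1 and 91.7). In 66 joining peaks the share was 95% or more, and in 51 it was under 50%. Over all 403, the joining peaks held 1.61 Mb, which is 9.24% of the bases in ecd1 peaks. Of these, 1.27 Mb (78.8%) lay on pieces, 0.247 Mb (15.3%) in the gaps between pieces and 0.0949 Mb (5.89%) beyond the outermost piece. The pieces had a further 0.602 Mb outside the joining peaks.

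**Figure D1:**
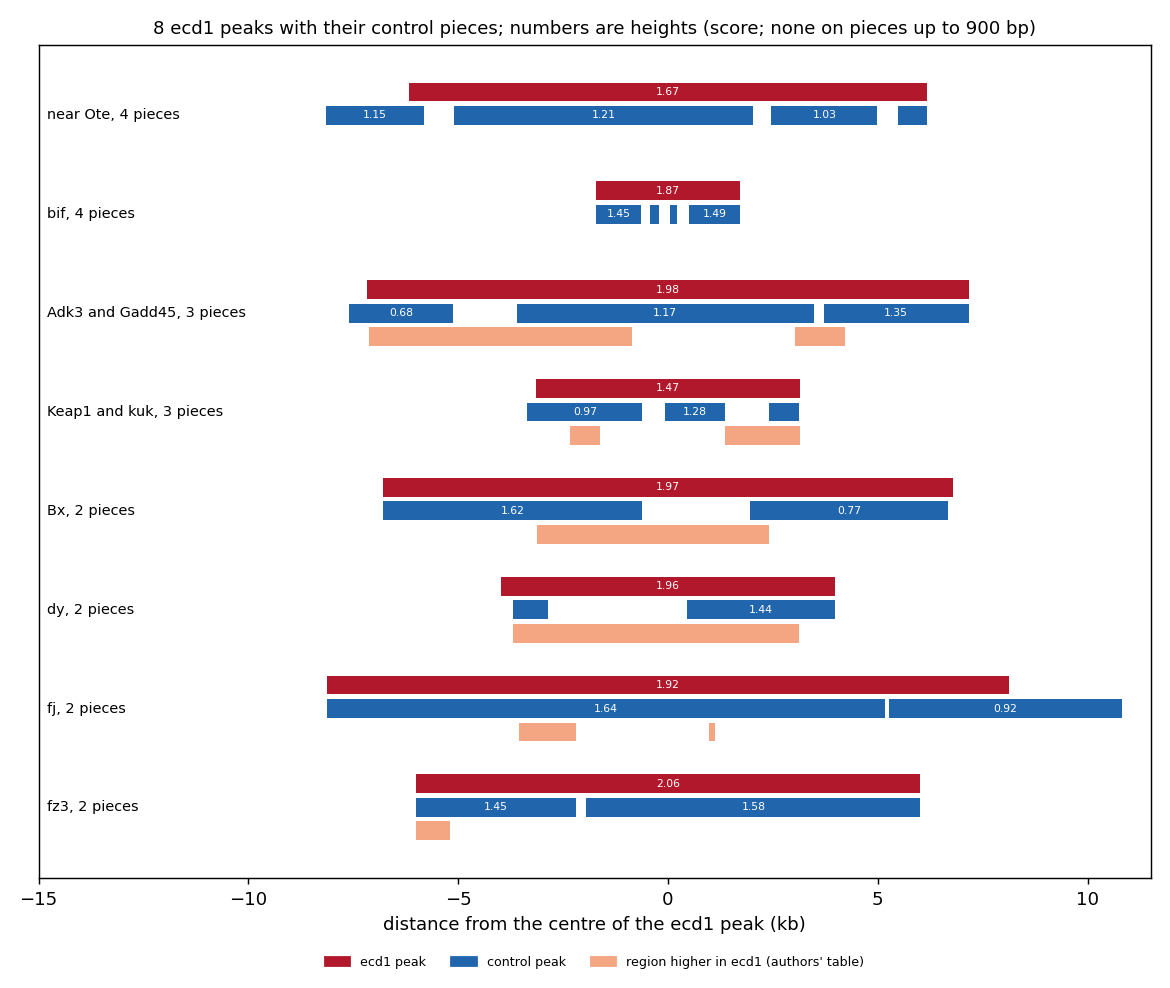
Each row shows an ecd1 peak (red), the control peaks under it (blue) and, where there is one, the region that the authors' deposited table gives as higher in ecd1 (orange), against the distance in kb from the centre of the ecd1 peak. Printed numbers are peak heights, a score; pieces of up to 900 bp carry none. The pieces at bif leave short gaps inside a peak of 3428 bp, while at dy a gap of 3311 bp lies within the region higher in ecd1.

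The peaks with the most pieces lay at Ote and bif. The peak at Ote (FBgn0266420), a gene of a nuclear envelope protein, was 12330 bp wide (2R:18263704-18276033) and overlapped the left end of the gene span. It had a height of 1.67, and its 4 pieces had heights of 1.15, 1.21, 1.03 and 0.97, so it was taller than each of them. The first of these pieces ran past its left end, and the 3 gaps summed to 1645 bp. The other peak with 4 pieces lay inside bif (FBgn0014133), which encodes a cytoskeletal protein known from photoreceptors. This peak (X:11681768-11685195) was 3428 bp wide with a height of 1.87. Its outer pieces had heights of 1.45 and 1.49 and its inner pieces, of 214 and 176 bp, heights of 0.47 each. Both outer ends were the same in the genotypes, and the 3 gaps held 752 bp in all.

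Among the joining peaks with 3 pieces, one overlapped Gadd45, a stress-induced gene, and Adk3, listed by the authors as Ady43A (FBgn0026602). This peak (2R:7240819-7255154) was 14336 bp wide with a height of 1.98, above its pieces of 0.68, 1.17 and 1.35. One gap of 1513 bp made up most of its 1754 bp without a control peak. In the authors' deposited table a region of height 1.37 (2R:7240855-7247126) is higher in ecd1 and spans that gap, and another of 1.08 (2R:7251015-7252206) spans the other gap. Another peak with 3 pieces (3R:17077110-17083415) covered an end of Keap1 (FBgn0038475), which encodes a sensor of oxidative stress, and an end of kuk (FBgn0038476), which encodes a nuclear lamina protein. It had a height of 1.47 above pieces of 0.97, 1.28 and 0.37. The region at kuk in the authors' deposited table, with a height of 1.18, runs over the gap of 1045 bp and the lowest piece.

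The remaining peaks with the most pieces showed other layouts. One of 13424 bp (3L:20914299-20927722) reached into fng, the gene of the glycosyltransferase that tunes Notch. Its height was 1.36, and pieces of 0.49 and 0.58 flanked a piece of 11711 bp with a height of 1.24. A peak of 12982 bp on 3R (3R:15640654-15653635) overlapped no gene span and had a height of 1.86 over pieces of 0.92, 1.48 and 1.43. The peak over lncRNA:CR45971 and olf413 (3L:22177330-22189523) had 5553 bp without a control peak, more than any other joining peak. It was lower than its tallest piece, with a height of 0.99 against pieces of 1.16, 1.33 and 0.79.

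Several of the widest joining peaks were 1 wide control peak with a smaller neighbour. The widest, 16247 bp at fj (FBgn0000658), covered the whole span of this gene of a Golgi kinase in planar polarity (2R:18224531-18240777). Its height was 1.92, and 16152 of its bases lay on 2 control peaks of heights 1.64 and 0.92 that were only 95 bp apart. The peak at CG17746 and mir-282 (3L:3239155-3253874) was 14720 bp wide, with a height of 1.69 over pieces of 1.43 and 1.46 and a gap of 337 bp. In this case the authors' deposited tables have a region of 1.27 higher in ecd1 across the gap (3L:3248553-3249619) and one of 0.90 higher in control on the first piece (3L:3243183-3243743). At Slh, a gene of vesicle transport, a peak of 13234 bp (2L:2477365-2490598) had a height of 1.87 over pieces of 1.45 and 0.83. Wide gaps occurred as well: at Bx, which encodes a LIM-only regulator of wing development, a peak of 13580 bp (X:18535022-18548601, height 1.97) held pieces of 1.62 and 0.77 that were 2586 bp apart. That gap lies within a region of height 1.10 in the authors' deposited table (X:18538697-18544228).

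The peaks with the most bases outside control peaks differed in where those bases lay. At dy (FBgn0004511), a gene of wing cell shape, they lay between the pieces: the peak (X:11777594-11785564, height 1.96) had pieces of 0.96 and 1.44 and the widest gap of all, 3311 bp. The authors' deposited table gives 6808 bp of it as higher in ecd1, with a height of 0.98. At esn (FBgn0263934), a gene of planar polarity, they lay at one end. That peak (2R:7083980-7092639) had a height of 1.79 over pieces of 1.73 and 1.00, with 677 bp in the gap and 4247 bp without a control peak in all. At glob1 (FBgn0027657), a globin gene, the peak had a height of 1.51 over pieces of 1.06 and 1.53, and the second of these shared a single base with it (3R:15901586-15907285). Such a single shared base also made the peak near CG11726 a joining one (3L:11389390-11394232), with a height of 0.66 over pieces of 0.73 and 0.63. The peak over lncRNA:CR43301 and drn (3R:9337578-9344943) was low too, at 0.77 against pieces of 0.94 and 0.93.

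The 2 named joining peaks of median width differed in build. One at Tsp, the thrombospondin gene (2L:6698866-6702284), was 3419 bp wide with a height of 1.18, and its pieces of 0.55 and 0.75 covered 64.2% of it. The other lay at cv-c, a gene of the wing crossveins (3R:14454736-14458149), and was 3414 bp wide with a height of 1.09. Its pieces of 0.82 and 0.67 ran past both ends and covered 93.3%, and 1 of them shared only 25 bp with it.

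The gaps between pieces were short compared with those between control peaks at large. The 431 gaps had a median of 367 bp (quartiles 188 and 746, range 3 to 3311), while neighbouring control peaks at large were a median of 4905 bp apart. Of the control gaps up to 500 bp wide, 262 of 780 (33.6%, 95% Wilson interval 30.4 to 37.0) were spanned by an ecd1 peak. Reading the lists the other way, 243 of 845 ecd1 gaps of that width (28.8%, 25.8 to 31.9) were spanned by a control peak. These intervals overlap. From 501 to 2000 bp the order was the opposite, with 8.63% of control gaps (7.39 to 10) and 15.2% of ecd1 gaps (13.7 to 16.8) spanned. No gap over 4000 bp was spanned in either direction, of 4727 control gaps and 5000 ecd1 gaps. Control peaks spanned 591 ecd1 gaps with 0.428 Mb, 1.74 times the bases in control gaps spanned by ecd1 peaks. The ecd1 list also had more gaps, 9553 against 8591, and the ratio was not adjusted for this.

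**Figure D2:**
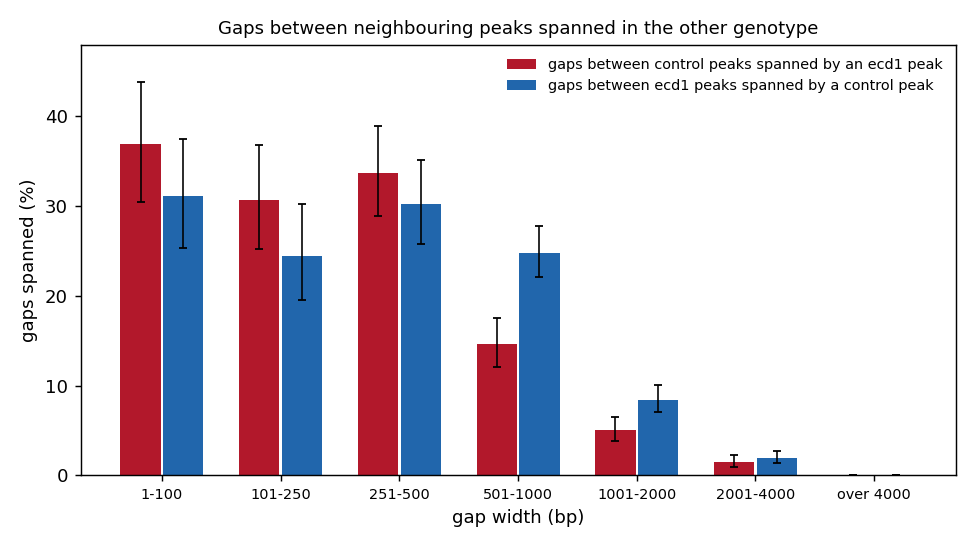
Bars give the percent of gaps between neighbouring peaks of one genotype that a single peak of the other genotype spans, by gap width in bp; error bars are 95% Wilson intervals (counting error only). Red, gaps between control peaks spanned by an ecd1 peak; blue, gaps between ecd1 peaks spanned by a control peak. For gaps of 501 to 1000 bp the values were 14.6% and 24.8%.

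The spanned gaps lay in the same kinds of places as unspanned ones of like width. Up to 500 bp, 69.5% of the spanned control gaps were inside a gene span and 70.8% of the others were. A gene end fell in 6.87% of the spanned and 4.83% of the other gaps, and 23.7% and 24.3% touched no gene. From 501 to 2000 bp, 55.7% of spanned and 55.2% of other gaps were inside a gene. The widest class made up little of the joining peaks, since 20 of the 431 gaps were over 2000 bp.

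Joining peaks were spread over the large chromosome arms at like rates. They made up 3.69% of the ecd1 peaks on X (66), 3.96% on 2L (65), 4.59% on 2R (85), 4.56% on 3L (90) and 4.38% on 3R (97), and the Wilson intervals of these shares overlapped. On chromosome 4, 0 of 90 ecd1 peaks joined control peaks, which allows a share of up to 4.09% by the Wilson interval. That limit is near the genome-wide rate. Only 1 control gap of up to 500 bp lay on chromosome 4, against 141 to 177 on each large arm. Wider gaps, some of which ecd1 peaks also spanned, were not counted by arm. Whether the number of gaps bears on the absence of joins there was not tested. At the same time 5 of the 86 control peaks on chromosome 4 overlapped 2 or more ecd1 peaks.

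Joining peaks were mostly taller than their pieces, and whether by more or less than single peaks exceeded their control partner depended on how the pieces were summarised. Joining peaks had a median height of 1.28 (quartiles 1.04 and 1.61, range 0.35 to 2.92), against 1.10 in all ecd1 peaks and 1.22 in ecd1 peaks over exactly 1 control peak. Pieces had a median of 0.89, against 0.88 in all control peaks. The height of the joining peak minus that of its tallest piece had a median of 0.17 (quartiles −0.04 and 0.38, range −1.02 to 1.20). For ecd1 peaks over exactly 1 control peak the same difference had a median of 0.27 (quartiles 0.06 and 0.51). The comparison is uneven, as the tallest of several pieces is set against a single control peak. Set against the mean of the pieces weighted by width, the median was 0.33, so the order turned and joining peaks had the larger difference.

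Counted peak by peak, 279 of the 403 (69.2%) were taller than every piece, where 79.9% of all ecd1 peaks over 1 or more control peaks were taller than the tallest of them. Another 99 lay between their lowest and tallest piece, 7 equalled the tallest and 18 were lower than every piece. Within a joining peak the tallest and the lowest piece differed by a median of 0.39, so pieces of unlike height were often joined. The difference to the tallest piece had a median of −0.02 in joining peaks up to 1000 bp wide and of 0.24 in those over 6000 bp. In each of the 6 width classes this difference to the tallest piece was below that of the ecd1 peaks over exactly 1 control peak, whose medians ran from 0.24 to 0.42. Where a piece shared a single base, 68.1% of joining peaks were taller than every piece, and where each piece shared 100 bp or more, 69.6% were.

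**Figure D3:**
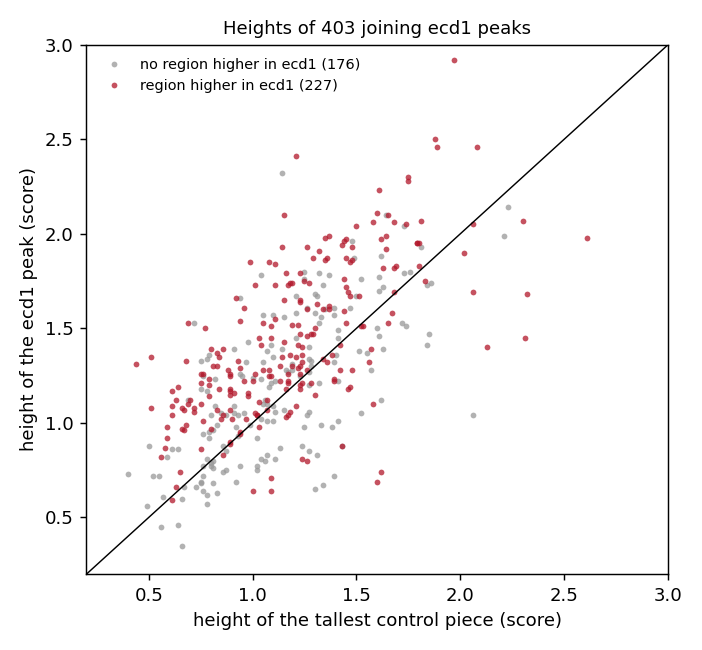
Each point is 1 of the 403 joining ecd1 peaks, with the height of its tallest control piece on the x axis and its own height on the y axis, both as the authors' score; the line marks equal heights. Red points (227) overlap a region that the authors' deposited table gives as higher in ecd1, grey points (176) do not, and 279 points lie above the line.

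In 3 of the 6 peaks that exceeded their tallest piece by most, control pieces ran past both ends. On 2L a peak of 2077 bp (2L:632252-634328) that overlapped no gene span had a height of 2.41 against pieces of 1.21 and 0.89. These control peaks were 8 bp apart, and the second shared a single base with the ecd1 peak. At ImpL2, the gene of a secreted insulin antagonist that ecdysone induces, a peak of 974 bp (3L:4226649-4227622) had a height of 2.32. Its pieces had heights of 0.76 and 1.14, were 77 bp apart, and ran past both ends. The tallest joining peak of all, at Ppn (FBgn0003137), the gene of the matrix protein papilin, had a height of 2.92 against 1.20 and 1.97, and the lower piece shared a single base (3R:28539206-28541568).

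The others among these 6 lay over at least 1 piece wholly inside. At robo1 (FBgn0005631), which encodes a receptor for the guidance cue Slit, a peak of 4975 bp (2R:22687945-22692919) had a height of 2.10 against pieces of 1.15 and 0.48, and the lower one shared a single base. Regions of 1.21 and 1.22 higher in ecd1 lie on this peak in the authors' deposited table. Inside Eip74EF, an ecdysone-induced Ets factor gene, a peak of 1809 bp (3L:17589690-17591498) with a height of 1.31 held pieces of only 149 and 472 bp. Their heights were 0.39 and 0.44, and control peaks covered 34.3% of the ecd1 peak. For Eip74EF a region of 1.16 in the authors' deposited table runs from the first piece across the gap of 730 bp to the second (3L:17590148-17591027). At lncRNA:CR44939 and lncRNA:CR44955 the heights were 1.85 against 0.99 and 0.65 (3R:10461722-10464776).

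The peaks furthest below their tallest piece each shared a single base with it. Inside Eip75B, an ecdysone-induced nuclear receptor gene, a peak of 686 bp had a height of 1.04 between control peaks of 2.06 and 1.97 (3L:18014977-18015662). At Spn43Aa, a serpin gene, a peak of 377 bp had a height of 0.69 against 1.60 and 0.31 (2R:7147537-7147913). At wun2, a lipid phosphatase gene, one of 2426 bp had a height of 0.74 against 1.62 and 0.43 (2R:9415837-9418262). The tall control peak met another ecd1 peak in all 3 cases.

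Regions that the authors called different between the genotypes were frequent on joining peaks. By the authors' deposited table, 227 of 403 (56.3%, 95% Wilson interval 51.4 to 61.1) overlapped a region higher in ecd1, where 37.3% of all ecd1 peaks did. The share was 33.6% for ecd1 peaks over exactly 1 control peak and 45.4% for those over none. A region higher in control, again by the authors' deposited table, met 45 joining peaks (11.2%) against a background of 8.24%. With 10 bp or more required, the count was 19 (4.71%) against 4.44%, since 26 met such a region by 1 bp only. For regions higher in ecd1 the 10 bp minimum left 224 (55.6%) against 37.1%. Regions of both directions in the authors' deposited table lay on 27 joining peaks and neither on 158. The tables list 1 region per gene and direction, so a peak without one was not thereby shown to be equal in the genotypes.

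The share also varied with width. Among ecd1 peaks over exactly 1 control peak, the share with an ecd1-higher region (authors' deposited table) went from 22.6% up to 1000 bp to 57.0% over 6000 bp. Joining peaks had 28.6% and 69.2% in the same classes, and the Wilson intervals overlapped in both. From 1001 to 2000 bp the joining peaks had 55.7% (44.1 to 66.8) against 32.2% (30.4 to 34.0), and from 2001 to 3000 bp 59.0% (48.3 to 69.0) against 38.9% (36.3 to 41.6). In the classes of 3001 to 4000 and 4001 to 6000 bp the shares were 47.8% against 42.2% and 58.4% against 49.4%, with overlapping intervals. The intervals were thus apart in 2 of the 6 classes.

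**Figure D4:**
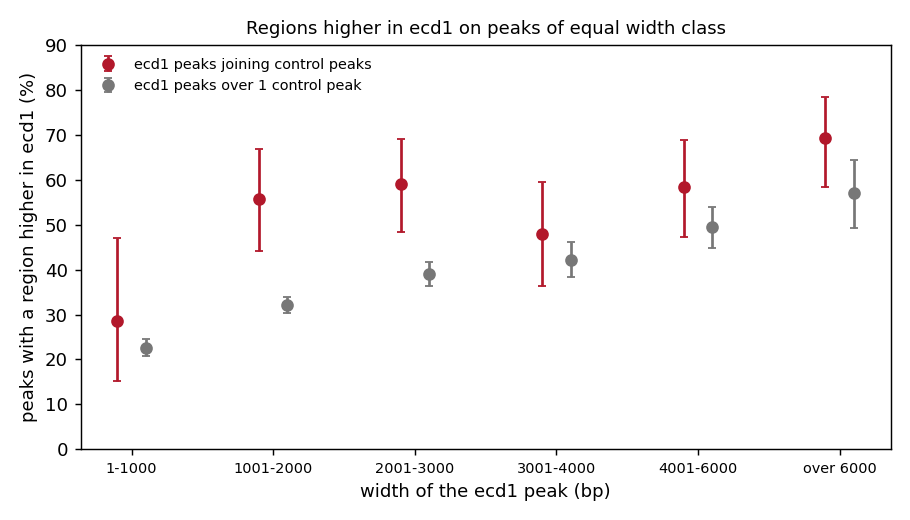
Points give the percent of ecd1 peaks with an ecd1-higher region from the authors' deposited table, by width of the ecd1 peak in bp, with 95% Wilson intervals (counting error only). Red, the 403 joining peaks; grey, the 6938 ecd1 peaks over exactly 1 control peak. The intervals are apart from 1001 to 3000 bp, with 55.7% and 59.0% of joining peaks against 32.2% and 38.9%.

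Within joining peaks the listed regions lay on pieces as well as in gaps. By the authors' deposited table, regions higher in ecd1 covered 24.9% of the gap bases, 18.6% of the bases on pieces and 22.2% of those beyond the outermost piece. They covered 19.7% of all joining peak bases and 20% of all ecd1 peak bases, so by bases joining peaks were close to the background. A region higher in ecd1 touched 107 of the 431 gaps (24.8%, 95% Wilson interval 21.0 to 29.1) in 104 joining peaks, and 85 gaps lay wholly inside one, by the authors' deposited table. Regions higher in control touched none of the 431 gaps. A gap is by definition outside control peaks and inside an ecd1 peak, which bears on this count. The 257 regions higher in ecd1 on joining peaks had a median height of 0.80 in the authors' deposited table, against 0.74 for all 4083.

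The authors' gene tables list 1 peak per gene, and 375 genes of the ecd1 table were listed at 229 of the joining peaks, 4.28% of its 8754 genes. Of these genes 301 were listed in control at a piece of the same joining peak, 66 at another control peak, and 8 not at all. At 62 joining peaks the control table placed genes at 2 or more of the pieces. The annotation gave a wider set: 360 joining peaks overlapped 543 gene spans, of which 448 were protein-coding and 68 lncRNA genes, and 43 overlapped none. Wholly inside a gene lay 188 (46.7%), near the 50.4% of ecd1 peaks over exactly 1 control peak. The 543 genes were 7.32% of the annotated genes with an ecd1 peak on their span.

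Gene lists were read against these backgrounds, gene by gene and peak by peak. Genes of wing patterning and selectors had a joining peak on their span in 25 of 69 cases (36.2%, background 7.32%). Such genes also carried many peaks, 5.09 ecd1 peaks per gene, where all genes had 8218 peaks on the spans of 7417 genes. Per peak, 29 of the 351 ecd1 peaks on their spans joined control peaks (8.26%, 95% Wilson interval 5.81 to 11.6), against 4.38% of the peaks on all gene spans (360 of 8218). Joins were not in 1 direction only, since 29 of 68 of these genes (42.6%) had a control peak over 2 or more ecd1 peaks, against 11.3% of all genes. By the authors' listing of genes, 8 of 72 were listed at a joining peak (11.1%, background 4.28%).

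Of the wing list, the tallest joining peaks in the authors' gene table besides fj were at fz3, sc and ptc. The peak at fz3 (FBgn0027343), a Frizzled receptor gene, was 12023 bp wide (X:769092-781114) with a height of 2.06 over pieces of 1.45 and 1.58 that were 251 bp apart. The authors' deposited table puts its region higher in ecd1, of 1.67, on the first piece and one of 0.50 higher in control on the second. Inside ptc (FBgn0003892), the Hedgehog receptor gene, a peak of 9801 bp (2R:8650635-8660435) had a height of 1.60 over pieces of 0.72 and 1.37 only 17 bp apart. Around sc (FBgn0004170), a proneural gene, the heights were 1.82 over 1.63 and 1.17 (X:394744-397706).

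Further wing genes are given here as examples chosen after their values were seen. At wg, the Wnt ligand gene, a peak of 9033 bp (2L:7314654-7323686) had a height of 1.59 against 0.95 and 1.44, but the lower piece shared a single base. The peak at bs, the gene of the intervein factor blistered, had a height of 1.99 over pieces of 1.37 and 0.66, the second sharing 66 bp (2R:24337875-24349100). At en, the selector of the posterior compartment, low pieces of 0.48 and 0.63 lay under a peak of 1.12 (2R:11526440-11530120). Lower than their tallest piece were the peaks inside inv (1.23 against 1.39), bi (0.83 against 1.07) and hth (0.72 against 1.39). The same held for a peak inside Dad (0.98 against 1.38) and for those at dve (1.21 against 1.32) and Wnt4 (0.68 against 0.81). All other joining peaks on the spans of the wing list were taller than their tallest piece. They include another peak at Dad (1.33 against 0.93). Inside Antp a peak of 367 bp with a height of 1.78 touched control peaks of 1.04 and 0.89 by 1 base at each end, so 365 of its bases lay between them.

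The ecdysone response list had 9 of 26 genes with a joining peak on their span (34.6%, background 7.32%), and 11 of 98 peaks (11.2%, 95% Wilson interval 6.38 to 19.0, background 4.38%). These genes carried 3.77 ecd1 peaks each on average, and 5 of 25 (20%) had a control peak over 2 or more ecd1 peaks, against 11.3% of all genes. By the authors' gene table, where the background was 4.28%, it was 1 of 28 (3.57%), so this measure showed no excess. The gene was Eip78C. That nuclear receptor gene held a peak of 3534 bp (3L:21250951-21254484) with a height of 2.46 over pieces of 1.42 and 2.08 that were 3 bp apart. A region of 1.36 higher in ecd1 equals the second piece in the authors' deposited table. Inside br, a zinc finger gene of the early response, a peak of 9054 bp had a height of 2.50 over 1.88 and 1.61 (X:1609446-1618499). Inside EcR, the receptor gene itself, the joining peak was lower than both pieces, at 1.46 against 1.61 and 1.58 (2R:6107191-6109981). Eip75B had 3 joining peaks among 13 ecd1 peaks, with heights of 1.57, 1.04 and 1.66 against tallest pieces of 1.10, 2.06 and 0.94. The list thus held joining peaks both above and below their pieces. The peaks at br and EcR and the further Eip75B peaks were chosen after their values were seen.

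Genes of growth and the cell cycle had 6 of 22 with a joining peak (27.3%, background 7.32%) and 6 of 54 peaks (11.1%, 95% Wilson interval 5.19 to 22.2, background 4.38%). They carried 2.45 ecd1 peaks per gene, where all genes had 8218 peaks on the spans of 7417 genes. Of 21 genes 9 (42.9%) had a control peak over 2 or more ecd1 peaks, against 11.3% of all genes. At stg (FBgn0003525), the Cdc25 phosphatase gene of mitotic entry, a peak of 6888 bp (3R:29252063-29258950) had a height of 1.86 over pieces of 0.58 and 1.35. On these pieces the authors' deposited table has ecd1-higher regions of 0.99 and 1.07. Inside CycE, the G1 to S cyclin gene, the height was 1.28 over 1.08 and 0.48, and a region of 0.96 in the authors' deposited table spans the gap of 397 bp (2L:15730654-15732451). Inside Myc the peak of 1.05 shared a single base with a piece of 0.82 beside one of 0.96 (X:3375088-3376366). Inside CycD it stood at 0.79 beside pieces of 0.65 and 0.80 (X:15907207-15909104). The other genes were E2f1 and ex.

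Stress, JNK and cell death genes had 5 of 34 with a joining peak (14.7%, background 7.32%), and 5 of 78 peaks (6.41%, 95% Wilson interval 2.77 to 14.1), which takes in the background of 4.38%. Besides Keap1 and Gadd45 these were upd3, ftz-f1 and Hsp83. At upd3 (FBgn0053542), a cytokine gene of JAK/STAT signalling, a peak of 2465 bp (X:18274966-18277430) had a height of 1.08 over pieces of 0.27 and 0.72 that were 31 bp apart. For upd3 an ecd1-higher region of 0.88 in the authors' deposited table includes that gap. Inside Hsp83, the Hsp90 gene, the peak equalled its tallest piece at 0.94 (3L:3195418-3196527), and the authors' deposited tables give regions of 0.41 higher in ecd1 and 0.61 higher in control there. Near the caspase gene Dcp-1, 933 bp away, a peak of 1.07 held pieces of 0.83 and 0.37 that covered 28.2% of it (2R:23545529-23550380). The genes that this peak overlapped were wmd, levy and pita.

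The other lists had shares per peak whose intervals include the background of 4.38%. For adhesion and axon guidance 5 of 106 peaks joined control peaks (4.72%, 95% Wilson interval 2.03 to 10.6). They lay on 4 of 27 genes (14.8%, background 7.32%), with robo1 beside kirre, rst and hbs. The peak inside rst, an immunoglobulin adhesion gene whose span lies within that of kirre, had a height of 1.10 over 1.07 and 0.36 (X:2956879-2959047). Of the ribosomal protein genes 4 of 50 (8.00%, background 7.32%) had a joining peak, and 4 of 56 peaks were joining (7.14%, 2.81 to 17.0). Examples were RpS16, at 1.53 against 1.65 and 0.79 (2R:22604865-22607065), and sta, at 1.10 over 0.54 and 0.69 (X:1474467-1482404). The authors' gene table also placed RpL31 and RpS15Aa at joining peaks, 1191 and 829 bp outside the genes, with heights of 1.16 over 0.98 and 1.22 over 1.13. Of the spliceosome genes SF2 had one, 1 of 24 peaks (4.17%, 0.739 to 20.2). That peak was lower than its tallest piece, at 0.63 against 0.83 and 0.36 (3R:16334186-16339350). The authors' gene table placed CG13900 at another, 2433 bp away (3L:820549-824287, 1.56 over 0.76 and 1.15).

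**Figure D5:**
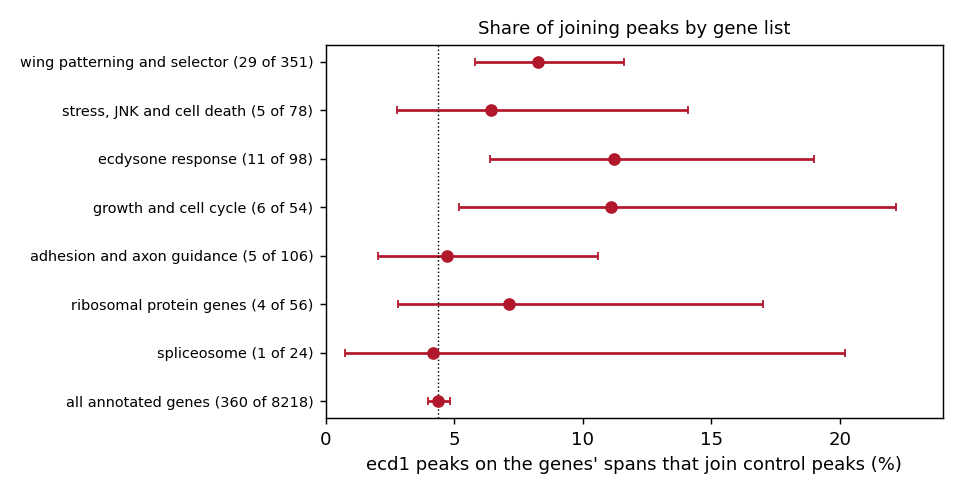
Points give the percent of ecd1 peaks on the spans of each gene list that join control peaks, with 95% Wilson intervals (counting error only) and the counts in parentheses; the dotted line is the 4.38% of all annotated genes. Of the 7 lists, the intervals of wing patterning, ecdysone response and growth lie above the line and those of the other 4 include it. The shares are not matched for peak width or gene length. The plot does not show the opposite arrangement, a control peak over 2 or more ecd1 peaks, which 42.6%, 20% and 42.9% of the genes in these 3 lists had, against 11.3% of all genes.

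A minority of joining peaks lay in runs. In 7 places 3 or more of them were within 20 kb of the next, 25 of the 403 in all, and how often other ecd1 peaks form such runs was not computed. One run of 4, with 8 pieces and heights from 0.72 to 1.96, spanned 38.9 kb over nub and Ref2 (2L:12593025-12631894). nub encodes the POU factor whose driver was used here, and 3 of the 10 ecd1 peaks on its span were joining, with heights of 1.96, 1.38 and 1.23 against tallest pieces of 1.48, 1.07 and 0.79. In the first of these, 1 piece shared a single base. Another 4 lay within jing, a zinc finger gene (2R:6510149-6574148), with heights of 1.60, 0.86, 1.76 and 1.54 against 1.26, 0.64, 1.25 and 0.94. All of the joining peaks inside nub and jing were therefore taller than every piece. Those at olf413 were not, with 0.69, 0.99 and 0.99 against 0.75, 0.99 and 1.33 (3L:22133298-22189523).

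The run around fj and Ote held 4 joining peaks with 11 pieces over 68.9 kb (2R:18207112-18276033). Its heights were 1.40, 1.92, 1.25 and 1.67 against tallest pieces of 2.13, 1.64, 0.89 and 1.21, so 3 of the 4 were taller. Around stg 4 joining peaks with heights from 0.98 to 1.86 lay within 45.5 kb. The other runs were at Dad, Keap1 and kuk (3 joining peaks within 27.5 kb) and at Atg16 and Cad99C (3 within 32.5 kb). Over all genes, 29 had 2 or more joining peaks on their span and 6 had 3 or more, namely jing with 4 and Eip75B, Svil, kirre, nub and olf413 with 3 each. These 6 genes were long, from 40.5 to 394.1 kb, and carried 8 to 25 ecd1 peaks each.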

How the data were processed

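Peaks of Dam-RNase H1 in wing discs were analysed from 1 list per genotype, with the authors' gene tables (1 peak per gene) and difference tables (1 region per gene and direction). The deposited peak height is a score of unstated scale, and each peak has an FDR (a q-value) deposited by the authors, all under 0.01. The build is BDGP6, per the submitters' processing notes; for the aligner, peak caller, treatment of replicates and use of Dam-only libraries nothing is stated in the sources used. Paired reads of 50 bp were sequenced, per the labels' protocols. The ecd1 Dam-only library was grouped by its genotype, against its description.

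Overlaps, widths, gaps and height differences were computed with Python 3.11.15, pandas 2.3.3 and numpy 2.4.6, after the overlap code was tested on simulated data. Coordinates count from 1 with both ends included. Shares have 95% Wilson intervals (scipy 1.17.1), which treat peaks as independent and cover counting error only. Gene identifiers were looked up in RefSeq genes of Release 6 plus ISO1 MT (9758 of 9826, 99.3%), which give spans without strand or exons; no sequence was used. No test between genotypes was made, as no file has a value per library.

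Members and gene lists were chosen with earlier results of these data known. Named are the 6 peaks with the most pieces, the 6 with the most bases off control peaks, the 6 widest, the 6 furthest above and 3 furthest below their tallest piece, 2 of median width and up to 4 per gene list by height, using the authors' gene tables. Other peaks were chosen after their values were seen. Alternatives were larger overlaps, stricter FDR, merging, pieces inside, taller pieces, other heights and other assignments.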

Additional observations from a re-analysis of the deposited data

How the results depend on the processing

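The number of joining peaks depended on what counts as a separate piece. It was 317 at 10 bp (chosen after seeing the data) and 295 at 100 bp. It was 215 with at least 50% of each piece inside, 219 with an FDR under 0.001, 162 with peaks within 500 bp merged first, 153 with pieces wholly inside and 115 with pieces of at least median height. Without joining peaks whose pieces met another ecd1 peak, also chosen after seeing the data, 257 were left. In the same 5 settings, from 50% inside to median height, control peaks over 2 or more ecd1 peaks numbered 337, 259, 327, 218 and 226 and outnumbered joining peaks each time. Genes of the authors' table numbered 225, 215, 166, 169 and 99.

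The ratio of widths crossed 1: its median was 1.08 at 100 bp, 1.20 with 50% inside, 1.09 after merging, 1.31 with pieces wholly inside, 1.04 at median height, 1.07 at 10 bp and 1.12 without shared pieces, against 0.985. The share of bases on control peaks moved to 65.4% after merging and 76.1% with pieces wholly inside. The height difference moved only with the weighted mean of the pieces, to 0.33. The share with a region higher in ecd1 was 64.7% with 50% inside, 66.0% with pieces wholly inside and 63.0% without shared pieces, and 25.8% counting only regions that touch a gap. Of 59 alternative values 30 were classed as moved and 29 as close. Those classed as close include 295 joining peaks against 403, and 273 or 543 genes against 375. Fewer or smaller overlaps enter by construction, and otherwise the cause was not tested.

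No paired analysis was possible because the tables carry no column per library. For the same reason leaving out a replicate could not be done, and what depth limits is unknown. The difference tables hold 1 region per gene and direction, so counts of peaks with a region are lower limits.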
